A study of Rattus norvegicus with 18 samples.

Results

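Neurons in dissociated culture share the dish with other cells, and 40 marker genes were used to read that mixture on arrays of rat hippocampal cultures. They comprised 11 astrocyte genes, 11 genes of the oligodendrocyte lineage, 12 microglia genes and 6 endothelial genes, out of 14217 genes named on the array. Each gene was represented by 1 probe set that carries only its symbol, the one with the highest mean log2 value over all 18 arrays. For 23 of the 40 genes there was only 1 such probe set, and the other 17 had 24 further ones between them.

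The cultures were grown for 10 days in vitro. On day 3 they were transduced with a lentivirus, a vector that carries a gene into dividing and resting cells alike, so that cells other than neurons could also have taken it up. One virus expressed MEF2-VP16-ER, the transcription factor MEF2 joined to the viral VP16 activation domain and to an estrogen receptor ligand-binding domain that answers to 4-hydroxytamoxifen (4OHT). The control virus expressed MEF2deltaDBD-VP16-ER, which lacks the domain of MEF2 that binds DNA and otherwise keeps the fusion. On day 10 both kinds of culture received 4OHT for 0, 1 or 2.5 h, which gave 6 groups of 3 biological replicates. The deposited values are intensities on a linear scale, and array medians lay between 190.4 and 197. Differences are given on the scale log2(intensity + 16) with their standard error (SE), from 1 limma fit to all 18 arrays in which replicate number was a block. A gene is called where its Benjamini-Hochberg adjusted p over 31042 probe sets was under 0.05. The labels give no source animal or culture for a replicate number, so the p-values measure only the spread between these samples.

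Astrocytes take up glutamate, buffer potassium and water and form a network through gap junctions. Oligodendrocytes arise from dividing precursors that carry the receptor PDGFRA and the proteoglycan NG2, and as they mature they switch on the genes of myelin. Microglia are the resident macrophages of the brain and make complement C1q, while endothelial cells line its vessels.

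Of the 11 astrocyte genes, 10 were above the array's own median on all 18 arrays, and Slc1a2, the glutamate transporter GLT-1, was below it on all 18. Gfap, the intermediate filament gene of astrocytes, was lowest at 3962, with a median of 8617 and a highest value of 13336. Aqp4, the water channel of astrocyte endfeet, ranged from 5198 to 9535 with a median of 7510, and Slc1a3, the glutamate transporter GLAST, from 9747 to 12176 with a median of 10626. These 3 defining markers of astrocytes were thus well above the array median in every culture.

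Of the 11 oligodendrocyte lineage genes, 4 were above the array median on all 18 arrays and 4 were below it on all 18. Those above were Pdgfra (median 2493), Olig1 (5486), a transcription factor gene of the lineage, Cnp (1613), which encodes an enzyme of non-compact myelin and its precursors, and Mbp (604), the gene of myelin basic protein. Those below were the myelin genes Mog, Mag and Mobp, with medians of 74.2, 109 and 50.6, and Ugt8 (63.7), an enzyme of galactolipid synthesis. Olig2, Sox10 and Cspg4, which encode 2 transcription factors of the lineage and the NG2 proteoglycan, lay on either side of the median.

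Microglia and endothelial genes were dim. Of the 12 microglia genes, 7 were below the array median on all 18 arrays, and Aif1 (the gene of IBA1, median 233) and Trem2 (a lipid receptor, 223) were above it on all 18. C1qa, a chain of complement C1q, ranged from 110 to 334, and Tyrobp, the adaptor through which TREM2 signals, from 49.7 to 92.3. All 6 endothelial genes were below the array median on all 18 arrays. Cldn5 (tight junctions), Flt1 (a VEGF receptor), Tek (the angiopoietin receptor) and Vwf (von Willebrand factor) were also below the lower quartile of each array, which lay between 67.5 and 71.1, while Pecam1 (CD31) ranged from 64.4 to 91.2 and Kdr (the main VEGF receptor) from 54.8 to 85.5. The brightness of a probe set depends on its probes as well as on its transcript, so levels of different genes were not compared, and no detection calls were used here.

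**Figure D1:**
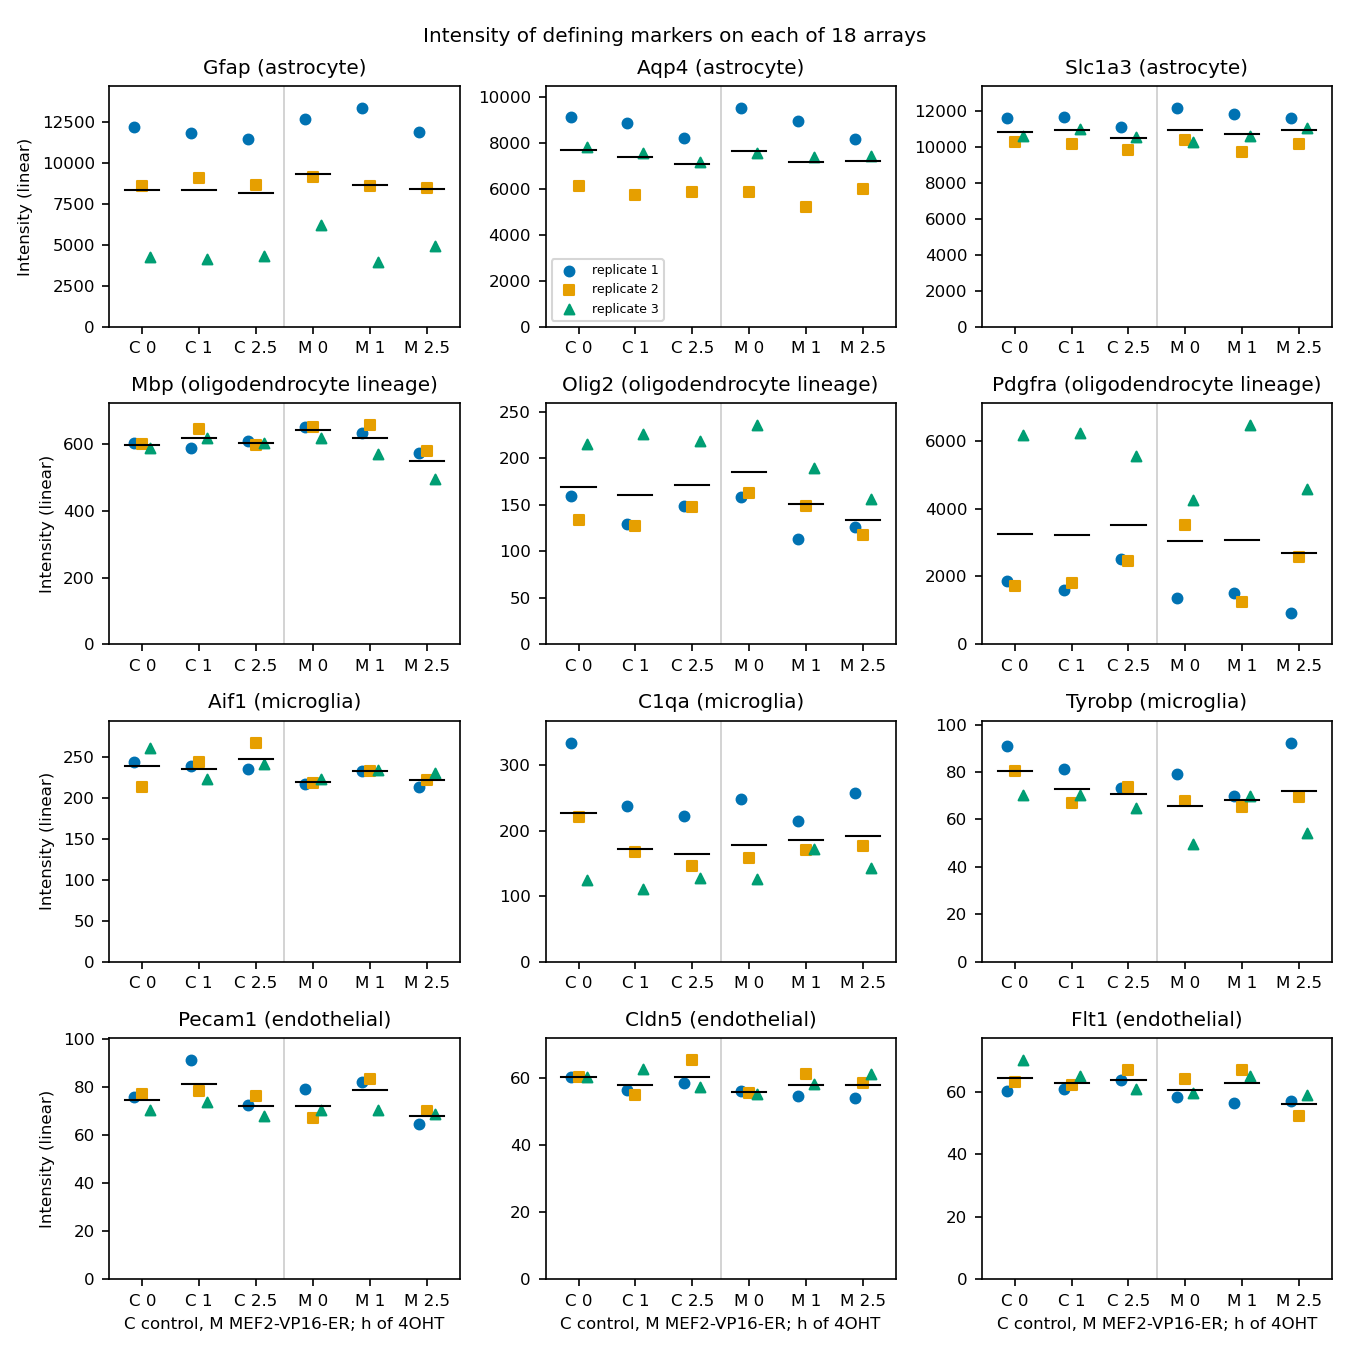
Linear intensity (y axis) of 3 defining markers of each cell class on the 18 arrays, by construct and hours of 4OHT (x axis); symbols mark the replicate number and bars the mean of 3 arrays. The 3 replicate numbers separate for Gfap in every group, and replicate 3 lies above the others for Pdgfra, while Pecam1, Cldn5 and Flt1 stay at or below 91.2 throughout.

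The first question was how far the replicate numbers differed, read within the 6 groups (6 arrays each). Of the 40 genes, 22 were called in at least 1 of the 3 comparisons and 18 in none. The share of all probe sets called in at least 1 of them was not read, so these 2 counts have no background. Replicate 2 was lower than replicate 1 for 10 genes and higher for 0, against 7.05% of all probe sets called (5.05% lower, 2% higher). Replicate 3 differed from replicate 1 for 21 genes, 10 higher and 11 lower, against 28.1% of all probe sets (13.6% higher, 14.4% lower). Replicate 3 differed from replicate 2 for 18 genes, 14 higher and 4 lower, against 21.2% (11.9% higher, 9.33% lower). In bulk RNA, fewer cells of a type and less RNA per cell cannot be told apart. Nor can a difference between cultures be told from one in the handling of RNA or arrays that went with replicate number. Among the 6 replicate 3 arrays, that of MEF2-VP16-ER at 0 h was the nearest to the replicate 1 mean for 9 of the 21 genes and for 27.6% of the 8713 probe sets called between replicates 3 and 1. For MEF2-VP16-ER at 2.5 h these were 4 genes and 22.1%, and for control at 0 h 3 genes and 20.7%. By median distance over the 21 genes, MEF2-VP16-ER at 2.5 h was nearest (0.35 log2 units), before MEF2-VP16-ER at 0 h (0.39). Over the 8713 probe sets MEF2-VP16-ER at 0 h was nearest (0.23). Without the MEF2-VP16-ER array at 0 h the counts were 21 for replicate 3 against 1 and 19 for replicate 3 against 2.

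Among astrocyte genes Gfap differed most. Its intensity was 11441 to 13336 in replicate 1 (median 11996), 8464 to 9144 in replicate 2 (median 8617) and 3962 to 6184 in replicate 3 (median 4285). The 3 sets of arrays did not overlap, and the highest value of replicate 3 was the MEF2-VP16-ER array at 0 h. Replicate 3 was lower than replicate 1 by -1.41 ± 0.07 log2 units (2.66-fold, adjusted p = 2.04e-08) and lower than replicate 2 by -0.93 ± 0.07 (1.91-fold, adjusted p = 2.05e-06). Replicate 2 was lower than replicate 1 by -0.48 ± 0.07 (adjusted p = 0.000849).

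The order of the replicate numbers was not the same in every astrocyte gene. Replicate 2 was the low set for Aqp4, with 5198 to 6124 (median 5882) against 8177 to 9535 (8920) in replicate 1 and 7195 to 7826 (7510) in replicate 3. None of these ranges overlapped, and replicate 2 was lower than replicate 1 by -0.60 ± 0.04 (adjusted p = 2.45e-06). Of the dimmer Aqp4 probe sets, 1 kept this order, with replicate 3 above replicate 2 by 0.45 ± 0.12 (adjusted p = 0.0118). The other had replicate 3 lowest, by -0.52 ± 0.08 against replicate 1 and -0.19 ± 0.08 against replicate 2 (the latter not called, adjusted p = 0.132). In all, 8 of the 11 astrocyte genes were lower in replicate 2 than in replicate 1, with a median over the 11 of -0.45 against 0.002 over all probe sets. Besides Gfap and Aqp4 they were Slc1a3 (-0.21 ± 0.03), S100b (-0.50 ± 0.05, a calcium-binding protein), Gja1 (-0.45 ± 0.05, the gap junction protein connexin 43), Ntsr2 (-0.64 ± 0.05, a neurotensin receptor), Glul (-0.32 ± 0.05, glutamine synthetase) and Fgfr3 (-0.51 ± 0.07, a growth factor receptor). In each of these 8 the replicate 2 array was the lower one in all 6 groups. The dimmer probe sets of Gja1 gave -0.23 ± 0.27 and 0.07 ± 0.05, neither called, and the mean over its probe sets gave -0.20 (adjusted p = 0.227). Those of Slc1a3 gave -0.44 ± 0.13 (adjusted p = 0.0463) and 0.15 ± 0.07 (not called, adjusted p = 0.23). Those of Glul gave -0.27 ± 0.07 (adjusted p = 0.0341) and -0.33 ± 0.13 (not called, adjusted p = 0.149). The dimmer one of Fgfr3 gave -0.15 ± 0.07 (not called, adjusted p = 0.275).

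In replicate 3 astrocyte genes were divided, with 3 called higher than in replicate 1 and 6 called lower. Aldh1l1, a folate enzyme used as an astrocyte marker, had 304 to 344 in replicate 1 (median 317), 235 to 305 in replicate 2 (median 262) and 395 to 748 in replicate 3 (median 609). All replicate 3 arrays were above all others, and the lowest of them, 395, was again MEF2-VP16-ER at 0 h. The difference was 0.85 ± 0.10 from replicate 1 (1.80-fold, adjusted p = 2.05e-05) and 1.11 ± 0.10 from replicate 2 (2.16-fold, adjusted p = 5.62e-06). Fgfr3 was also higher in replicate 3, by 0.40 ± 0.07 and 0.91 ± 0.07. The remaining gene called higher than in replicate 1 was Aldoc, with 4641 to 5356 in replicate 1 and 5131 to 6245 in replicate 3. That call of Aldoc was lost in several fits that left out 1 array and in the fit without replicate 2. Ntsr2 was lower in replicate 3 than in replicate 1 by -0.52 ± 0.05 and S100b by -0.32 ± 0.05. Slc1a3 was also called lower, but its dimmer probe sets gave 0.15 ± 0.07 (adjusted p = 0.128) and -0.18 ± 0.13 (adjusted p = 0.34), neither called. Slc1a2 was the astrocyte gene called in none of the 3 comparisons.

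Oligodendrocyte lineage genes set replicate 3 apart from both other numbers. Pdgfra, the receptor of the precursors, had 935 to 2521 in replicate 1 (median 1545), 1245 to 3522 in replicate 2 (median 2142) and 4249 to 6459 in replicate 3 (median 5862). All 6 replicate 3 arrays were above all 12 others, and the closest pair were the MEF2-VP16-ER arrays at 0 h, 3522 in replicate 2 and 4249 in replicate 3. Replicate 3 exceeded replicate 1 by 1.80 ± 0.22 log2 units (3.48-fold, adjusted p = 2.1e-05) and replicate 2 by 1.37 ± 0.22 (2.59-fold, adjusted p = 0.000415). The difference between replicates 2 and 1 was 0.43 ± 0.22 and was not called (adjusted p = 0.325).

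Cnp went the same way, at 1314 to 1796 in replicate 1, 1308 to 1782 in replicate 2 and 2158 to 3571 in replicate 3, with no overlap of replicate 3 with the others. It was higher in replicate 3 by 1.04 ± 0.11 than in replicate 1 (2.06-fold, adjusted p = 5.3e-06) and by 1.06 ± 0.11 than in replicate 2. Its other probe set gave 1.03 ± 0.11 and 0.99 ± 0.11. Sox10 (191 to 278, 209 to 328 and 265 to 436 in replicates 1, 2 and 3) was higher in replicate 3 than in replicate 1 by 0.64 ± 0.08, and Olig2 (113 to 160, 118 to 162 and 156 to 235) by 0.52 ± 0.06. For both, the replicate 3 array was the highest in all 6 groups although the ranges over groups overlapped. Cspg4 (0.50 ± 0.08), Olig1 (0.30 ± 0.06) and Ugt8 (0.27 ± 0.06) were also called higher. Thus 7 of the 11 lineage genes were higher in replicate 3 than in each of the other numbers, and 0 were lower. Of all probe sets 13.6% were higher than in replicate 1 and 11.9% higher than in replicate 2. The share higher than in both was not read.

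The 4 not called were the myelin genes Mbp, Mog, Mag and Mobp, although Cnp, an enzyme of non-compact myelin, was called. In replicate 3 against replicate 1, Mbp gave -0.07 ± 0.04, Mog -0.12 ± 0.07, Mag 0.07 ± 0.04 and Mobp -0.05 ± 0.05, with adjusted p from 0.195 to 0.514. The probe sets of Mbp disagreed: another, with a mean intensity of 130, was called higher by 1.06 ± 0.15 (adjusted p = 8.68e-05), and a dimmer one by 0.20 ± 0.07 (adjusted p = 0.0345). Probe sets of Olig2 differed too, the dimmer one giving 0.08 ± 0.04 (not called, adjusted p = 0.175). Between replicates 2 and 1, 0 of the 11 lineage genes were called by limma (0 with an unadjusted p under 0.05).

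Of the 12 microglia genes, 5 were lower and 0 higher in replicate 3 than in replicate 1, where 14.4% of all probe sets were lower. C1qa had 215 to 334 in replicate 1 (median 243), 146 to 221 in replicate 2 (median 169) and 110 to 172 in replicate 3 (median 126). Replicates 1 and 3 did not overlap, and replicate 3 was lower by -0.84 ± 0.09 (1.79-fold, adjusted p = 5.97e-06). Replicate 2 was lower than replicate 1 by -0.50 ± 0.09 (adjusted p = 0.00309). C1qc (-0.45 ± 0.06) and C1qb (-0.25 ± 0.06), the other chains of C1q, Tyrobp (-0.30 ± 0.07) and Cd68 (-0.28 ± 0.05), a lysosomal protein of macrophages, were the others. The other 7 were called in no comparison: the receptors Csf1r, Cx3cr1, Trem2 and P2ry12, the integrin Itgam, Ptprc (CD45) and Aif1. The dimmer probe set of Aif1 was called lower than in replicate 1 both in replicate 3 (-0.17 ± 0.04, adjusted p = 0.00303) and in replicate 2 (-0.14 ± 0.04, adjusted p = 0.0335). Of the 6 endothelial genes 0 were called by limma in any of the 3 comparisons, with 0, 1 and 1 at an unadjusted p under 0.05 for replicates 2 against 1, 3 against 1 and 3 against 2.

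**Figure D2:**
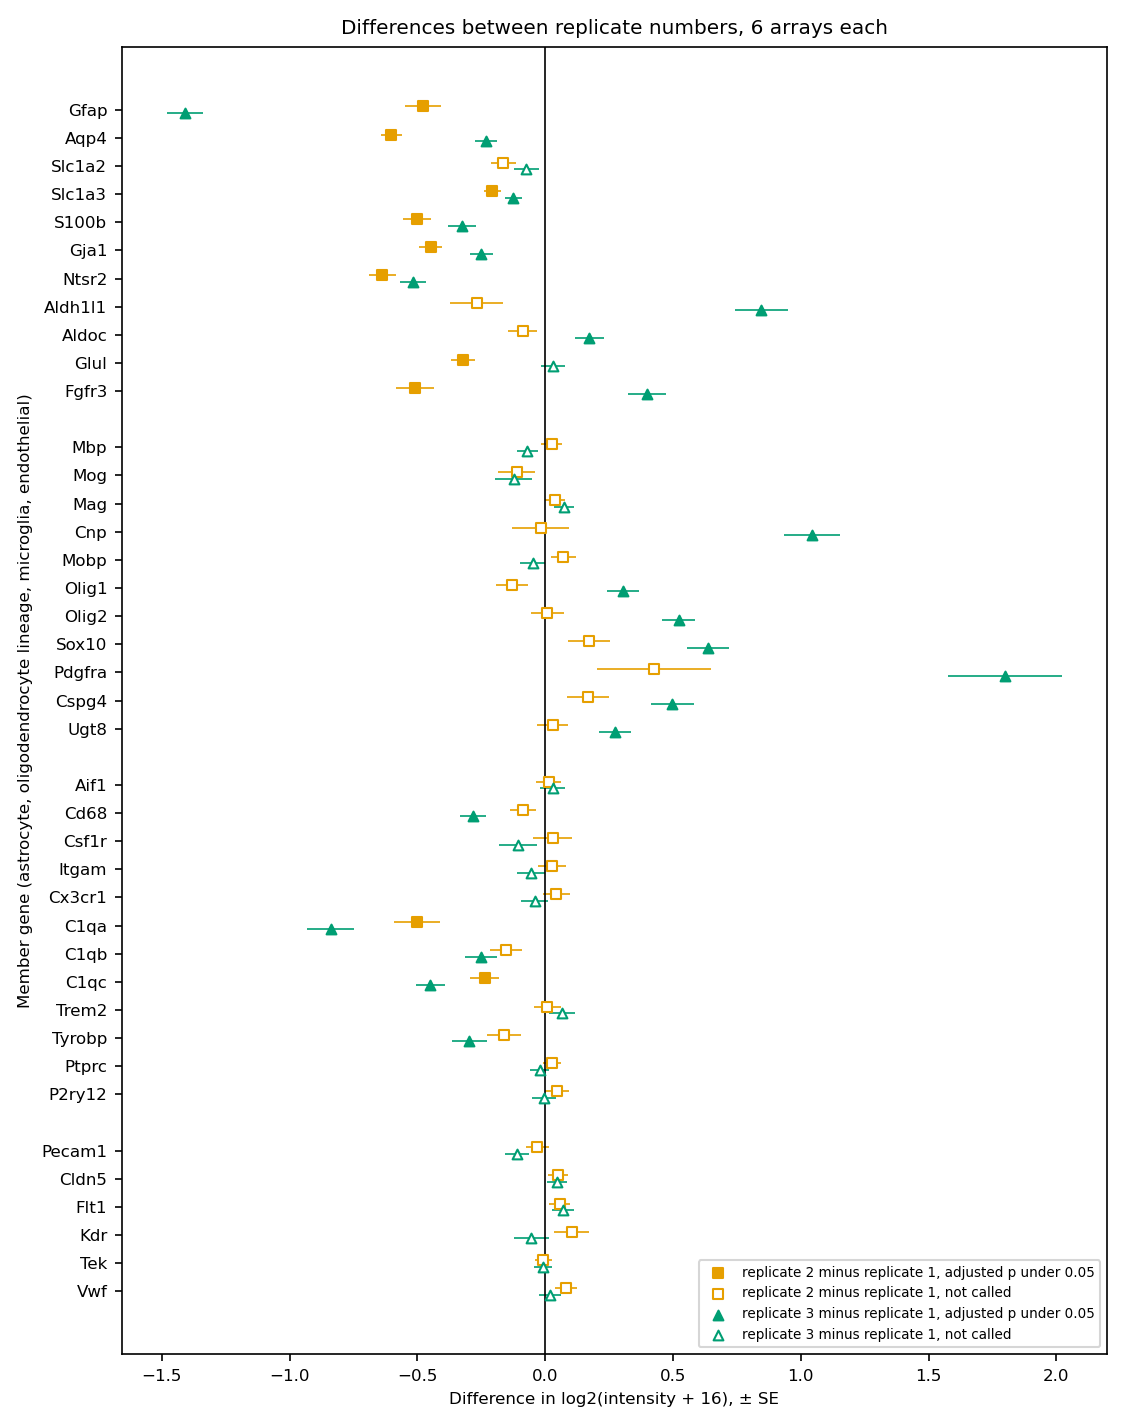
Difference in log2(intensity + 16) with SE (x axis) of each of the 40 genes (y axis, by class) in replicate 2 (squares) and replicate 3 (triangles) against replicate 1, 6 arrays each; filled symbols have an adjusted p under 0.05. Pdgfra (1.80) and Cnp (1.04) lie farthest to the right and Gfap (-1.41) farthest to the left.

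Promoter windows are shown for 3 lineage genes that were higher together in replicate 3, for Gfap, which was lower there, and for S100b, the member whose window holds a MEF2 element. Each is the 250 bases before the start site of the gene, read 5′ to 3′ in the direction of the gene, from RefSeq on build GRCr8. Capitals mark matches, on either strand, to the MEF2 element, to an E-box (CAGCTG), to the core bound by SOX proteins (ACAAAG), to a TATA box (TATAAA) or to a CCAAT box. None of these motifs overlapped another in these windows.
Pdgfra (chr14:33408517-33408766, minus strand): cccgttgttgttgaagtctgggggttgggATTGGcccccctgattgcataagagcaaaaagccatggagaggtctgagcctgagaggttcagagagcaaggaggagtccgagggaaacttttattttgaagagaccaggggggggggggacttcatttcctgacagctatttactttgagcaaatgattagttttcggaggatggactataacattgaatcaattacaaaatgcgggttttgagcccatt
Cnp (chr10:86011254-86011503, plus strand): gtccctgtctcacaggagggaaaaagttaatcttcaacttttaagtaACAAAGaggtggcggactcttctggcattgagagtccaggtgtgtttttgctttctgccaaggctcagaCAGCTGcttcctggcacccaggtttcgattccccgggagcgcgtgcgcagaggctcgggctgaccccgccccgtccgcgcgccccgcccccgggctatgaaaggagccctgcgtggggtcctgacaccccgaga
Olig2 (chr11:43961335-43961584, plus strand): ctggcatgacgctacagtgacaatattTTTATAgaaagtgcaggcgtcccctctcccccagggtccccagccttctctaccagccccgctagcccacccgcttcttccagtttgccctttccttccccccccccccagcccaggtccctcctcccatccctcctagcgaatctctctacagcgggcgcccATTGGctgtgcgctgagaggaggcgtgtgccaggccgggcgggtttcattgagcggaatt
Gfap (chr10:88361662-88361911, minus strand): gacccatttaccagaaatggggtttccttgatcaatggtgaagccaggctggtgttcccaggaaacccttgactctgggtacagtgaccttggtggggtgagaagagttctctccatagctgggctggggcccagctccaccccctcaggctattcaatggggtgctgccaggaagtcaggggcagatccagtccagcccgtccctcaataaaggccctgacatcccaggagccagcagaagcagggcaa
S100b (chr20:12381082-12381331, minus strand): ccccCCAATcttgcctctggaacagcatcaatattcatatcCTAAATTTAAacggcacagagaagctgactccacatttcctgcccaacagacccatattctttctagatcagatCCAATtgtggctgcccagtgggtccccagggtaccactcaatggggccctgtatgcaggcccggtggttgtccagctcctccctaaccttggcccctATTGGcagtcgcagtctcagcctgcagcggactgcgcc
Gfap has no match in capitals. Pdgfra has a CCAAT box at -221 on the opposite strand, counted from the start site. Cnp has the SOX core at -203 and the E-box at -134, and Olig2 has a TATA box at -223 and a CCAAT box at -60, both on the opposite strand. S100b has the MEF2 element at -209 and CCAAT boxes at -246, -135 and -38, the last on the opposite strand.

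Windows were available for 30 of the 40 genes, 36 windows in all. Those not matched were Vwf, Tyrobp, Mog, Sox10, Olig1, Tek, P2ry12, Aif1, Pecam1 and C1qc. The MEF2 element was found in 1 of the 36 windows (1 gene) and in 2.961% of 33469 windows of all genes. The E-box was found in 6 of the 36 (6 genes, 11.972% of all windows) and the SOX core in 9 (7 genes, 16.296%). The TATA box was found in 2 (2 genes, 12.931%) and the CCAAT box in 14 (13 genes, 34.017%). A match is a description of letters and no evidence of binding.

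Genes of the same cell classes outside the 40, and genes of fibroblasts, neurons and dividing cells, were read in the same comparisons. Their counts for replicate 3 against replicate 1 stand beside 28.1% of all probe sets called (13.6% higher, 14.4% lower), and no difference between lists was tested. Against replicate 2, 11.9% of all probe sets were higher in replicate 3. For counts of genes higher than in both other numbers no share of all probe sets was read. Of 10 further oligodendrocyte lineage genes measured, 8 were higher in replicate 3 than in each other number and 0 lower. Nkx2-2, a transcription factor of precursors, had 84.3 to 194 in replicate 1, 92.1 to 227 in replicate 2 and 436 to 1247 in replicate 3, a difference of 2.63 ± 0.23 from replicate 1 (6.18-fold, adjusted p = 1.03e-06). Bcas1, expressed as oligodendrocytes begin to make myelin, was higher by 2.27 ± 0.18, Cldn11, a tight junction protein of myelin, by 1.22 ± 0.10 and Tspan2, a tetraspanin of the lineage, by 0.58 ± 0.06.

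Genes of dividing cells were higher in replicate 3 in 10 of 10 cases against either other number. Mki67, the proliferation antigen Ki-67, had 121 to 195 in replicate 1, 126 to 198 in replicate 2 and 411 to 730 in replicate 3. Its difference from replicate 1 was 1.80 ± 0.15 (3.49-fold, adjusted p = 7.05e-07). Ccna2 (2.06 ± 0.18), Top2a (1.35 ± 0.13) and Cdk1 (1.30 ± 0.11), which encode cyclin A2, a topoisomerase and a mitotic kinase, also had replicate 3 higher. On the MEF2-VP16-ER array at 0 h the median deviation of the 10 genes from their means was 0.14 log2 units, against 0.43 to 0.76 on the other 5 replicate 3 arrays. Whether dividing cells had a part in the lineage result was not tested.

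Of 20 further astrocyte genes, 5 were higher and 7 lower in replicate 3 than in replicate 1. Id3, a transcriptional inhibitor, was higher by 1.90 ± 0.24 and Tnc, an extracellular matrix protein, by 0.89 ± 0.11, while Gpr37l1, an astrocyte receptor, was lower by -0.85 ± 0.08 and Vim, the filament protein vimentin, by -0.63 ± 0.04. Of 13 further microglia genes 7 were lower and 0 higher, among them Mpeg1 (-0.55 ± 0.06), Cyba (-0.45 ± 0.07), Fcer1g (-0.45 ± 0.06) and Cd14 (-0.42 ± 0.05). Of 15 further vascular genes 3 were lower and 0 higher, namely Abcc9 (-0.41 ± 0.05, a channel subunit of pericytes), Ramp2 (-0.31 ± 0.07) and Abcb1a (-0.14 ± 0.03, an efflux pump). Among 10 fibroblast genes 4 were lower, Fn1 (-0.80 ± 0.07, fibronectin) most of all, and 1 was higher, Pdgfra, which that list shares with the lineage genes.

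Of 16 neuron genes, 1 was higher in replicate 3 than in replicate 1 (Tubb3, a neuronal tubulin, 0.52 ± 0.05) and 5 were lower, among them Gad1 (-0.58 ± 0.06), the enzyme that makes GABA, and Slc17a7 (-0.32 ± 0.06), a vesicular glutamate transporter. Rbfox3 (NeuN, -0.02 ± 0.05, adjusted p = 0.795) and Map2 (-0.07 ± 0.04, adjusted p = 0.232) were not called, and Syn1, a synaptic vesicle protein, was lower by -0.16 ± 0.04 (adjusted p = 0.00561).

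**Figure D3:**
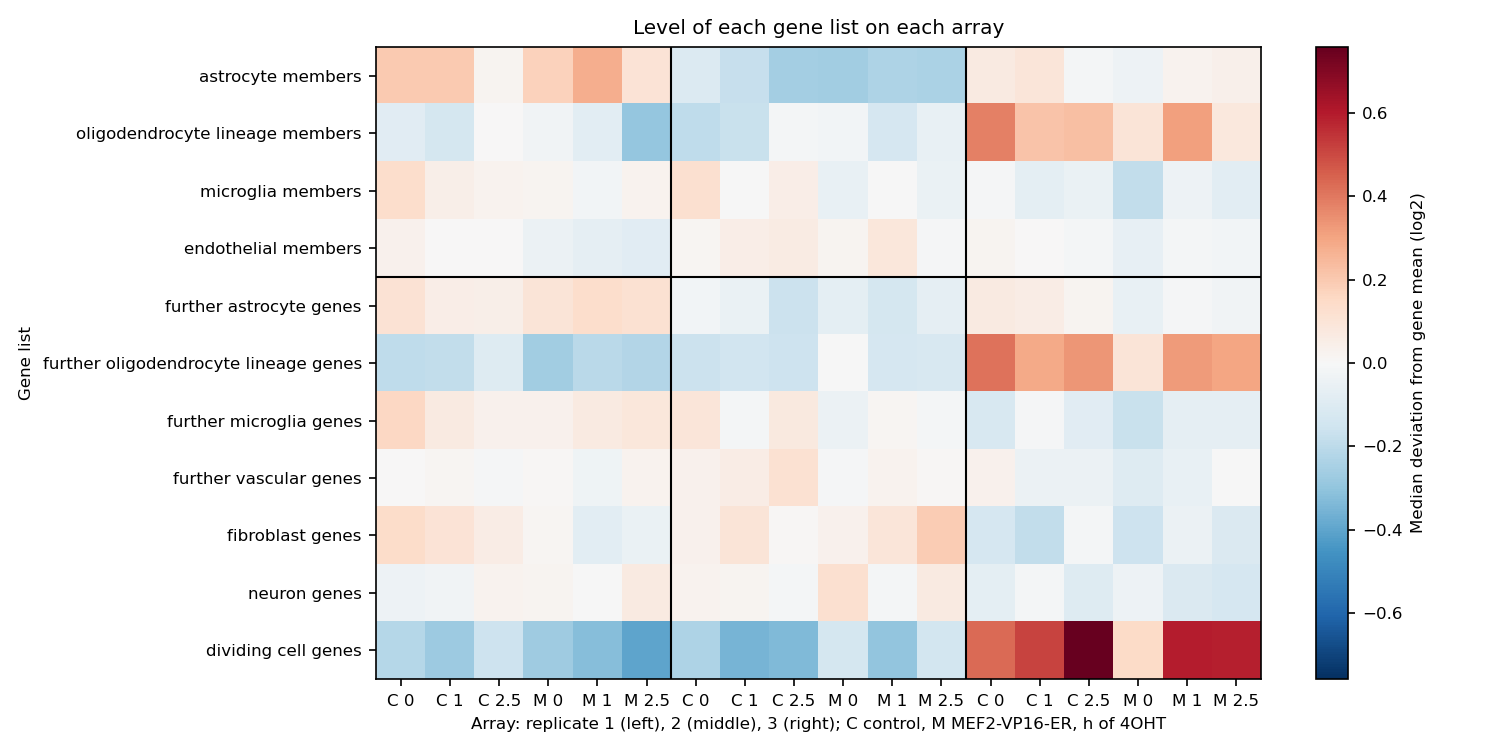
Median deviation (colour, log2 units) of the genes of each list (rows) from their own means on each of the 18 arrays (columns, grouped by replicate number). Oligodendrocyte lineage and dividing cell genes are high in replicate 3, with the MEF2-VP16-ER array at 0 h the palest for dividing cells (0.14), and astrocyte genes are low in replicate 2.

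The second question was whether the cell mixture differed between the constructs or moved with 4OHT, compared within replicate numbers. Over the 6 groups together 0 of 40 genes were called by limma's F test (5 with an unadjusted p under 0.05, smallest adjusted p 0.124), against 2.72% of all probe sets, and 0 without the replicate block (0.751% of all probe sets). Group means of Gfap lay between 8132 and 9330, of Aqp4 between 7097 and 7693 and of Slc1a3 between 10492 and 10953. Mbp means lay between 551 and 642, Aif1 between 220 and 248 and Tyrobp between 65.6 and 80.5. Pecam1 (67.8 to 81.1), Cldn5 (55.7 to 60.4) and Flt1 (56.1 to 64.4) had the means of the vascular class.

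Before 4OHT, 0 of the 40 genes were called between MEF2-VP16-ER and control cultures, against 0.00322% of all probe sets, and 10 had an unadjusted p under 0.05. Of these 10, 6 were microglia genes. The share of all probe sets at that unadjusted threshold was not read, so these 2 counts have no background. C1qa had 334, 221 and 124 in control cultures (replicates 1, 2 and 3) and 248, 159 and 126 with MEF2-VP16-ER, a difference of -0.28 ± 0.13 (adjusted p = 0.339). C1qb (-0.30 ± 0.09, adjusted p = 0.209), C1qc (-0.28 ± 0.08, adjusted p = 0.198) and P2ry12 (-0.23 ± 0.07, adjusted p = 0.205) were also not called. In 11 of 12 microglia genes the difference was negative, with a median of -0.15 against 0.01 over all probe sets.

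The same 0 h arrays enter each induction, the change with 4OHT in MEF2-VP16-ER cultures minus that in controls. At 1 h, 0 of 40 inductions were called (background 0.029%), and 4 had an unadjusted p under 0.05. At 2.5 h 0 were called (background 0.937%), and 7 had an unadjusted p under 0.05. Each background, here and below, is the share of all probe sets called. It is not a share at an unadjusted p. The microglia median was 0.15 at 1 h and 0.13 at 2.5 h, but -0.02 and -0.08 over the 3 microglia genes above the median level of all probe sets. At matched times, with no subtraction of the 0 h difference, the microglia median of MEF2-VP16-ER minus control was -0.01 at 1 h and -0.04 at 2.5 h.

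At 1 h, 0 of 40 genes were called between the constructs (0 with an unadjusted p under 0.05, background 0.254%). At 2.5 h, 1 was called, Sox10, a transcription factor needed throughout the oligodendrocyte lineage, against 3.49% of all probe sets, and 8 had an unadjusted p under 0.05. Sox10 had 278, 328 and 379 in control cultures at 2.5 h (replicates 1, 2 and 3) and 195, 237 and 265 with MEF2-VP16-ER. The groups did not overlap, and the MEF2-VP16-ER array was the lower one of each replicate number. The difference was -0.47 ± 0.12 (1.39-fold, n = 3 against 3, adjusted p = 0.0349). Without the replicate block, where 1.28% of all probe sets were called, the adjusted p was 0.703. The call was also lost, with adjusted p from 0.05 to 0.192, when any 1 of 6 arrays was left out: control 2.5 h replicate 1 (0.111) or 2 (0.184), MEF2-VP16-ER 2.5 h replicate 1 (0.0624) or 3 (0.192), control 1 h replicate 2 (0.0514) or MEF2-VP16-ER 1 h replicate 3 (0.05).

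Sox10 in control cultures was 247, 209 and 436 at 0 h and 191, 228 and 347 at 1 h, so control values at 2.5 h were above those at 1 h in every replicate number. With MEF2-VP16-ER it was 202, 246 and 328 at 0 h and 197, 240 and 334 at 1 h. The change from 0 h to 2.5 h was 0.19 ± 0.12 in control and -0.13 ± 0.12 in MEF2-VP16-ER cultures, neither called, and the induction at 2.5 h was -0.32 ± 0.17 (adjusted p = 0.649).

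Of the other lineage genes none was called between the constructs at 2.5 h. In 10 of 11 the difference was negative, with a median of -0.13 against 0.01 over all probe sets. Pdgfra had 2521, 2464 and 5554 in control and 935, 2565 and 4578 with MEF2-VP16-ER, a difference of -0.55 ± 0.32 that was not called, with replicates 1 and 3 lower and replicate 2 slightly higher. Olig2 had 148, 148 and 219 against 126, 118 and 156, a difference of -0.32 ± 0.09 (adjusted p = 0.0767).

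Against 0 h, 0 of 40 genes were called in control cultures at 1 h (3 with an unadjusted p under 0.05, background 0%) or at 2.5 h (6, background 0.00322%). In MEF2-VP16-ER cultures, 0 were called at 1 h (3 with an unadjusted p under 0.05, background 0.187%). At 2.5 h in MEF2-VP16-ER cultures 1 was called, Olig2, which specifies the lineage, against 2.33% of all probe sets. Its intensity was 158, 162 and 235 at 0 h and 126, 118 and 156 at 2.5 h, lower at 2.5 h in each replicate number and without overlap. The fall was -0.42 ± 0.09 (1.34-fold, n = 3 against 3, adjusted p = 0.0196). In control cultures over the same time it gave 0.02 ± 0.09, and the difference of the changes was -0.44 ± 0.13 (adjusted p = 0.19, not called).

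The Olig2 call was lost without the replicate block (adjusted p = 0.983, background 0.789%) and without any 1 of 5 arrays: MEF2-VP16-ER 0 h replicate 1 (0.0725), 2 (0.0858) or 3 (0.0795) and MEF2-VP16-ER 2.5 h replicate 2 (0.0615) or 3 (0.154). The other Olig2 probe set gave 0.08 ± 0.06 (adjusted p = 0.732). Mbp, which had 653, 652 and 620 at 0 h and 575, 581 and 496 at 2.5 h, gave -0.22 ± 0.06 and was not called (adjusted p = 0.0602).

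Averaged over the 3 times (9 arrays against 9), 0 of 40 genes were called between the constructs (6 with an unadjusted p under 0.05, background 3.83%). The smallest adjusted p was that of Ntsr2, -0.14 ± 0.04 (adjusted p = 0.0927). Gfap gave 0.23 ± 0.10 at 0 h (adjusted p = 0.316). Slc1a2 was the astrocyte gene with the largest induction at 2.5 h, 0.41 ± 0.10 (adjusted p = 0.0742), from 0 h values of 112, 100 and 102 in control and 98.2, 81.9 and 92.9 with MEF2-VP16-ER to 2.5 h values of 95.9, 82.0 and 78.9 and of 104, 103 and 101.

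**Figure D4:**
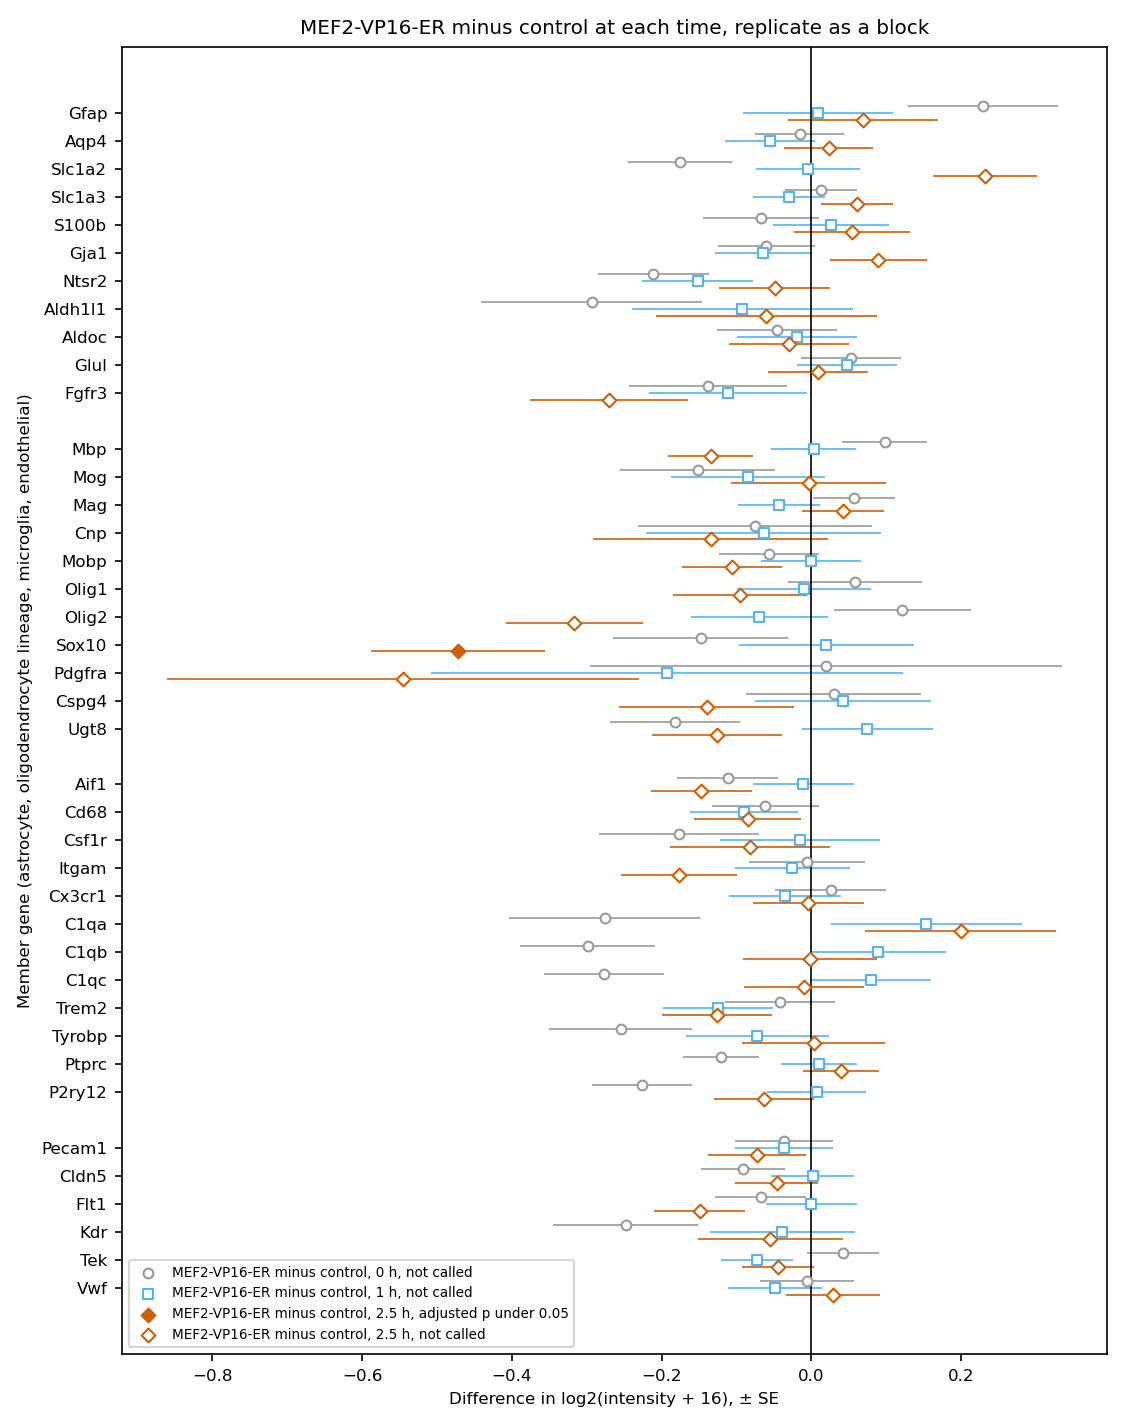
MEF2-VP16-ER minus control in log2(intensity + 16) with SE (x axis) for each of the 40 genes (y axis, by class) at 0 h (circles), 1 h (squares) and 2.5 h (diamonds), 3 arrays per group, with replicate number blocked. The filled diamond, Sox10 at -0.47, is the 1 called difference.

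**Figure D5:**
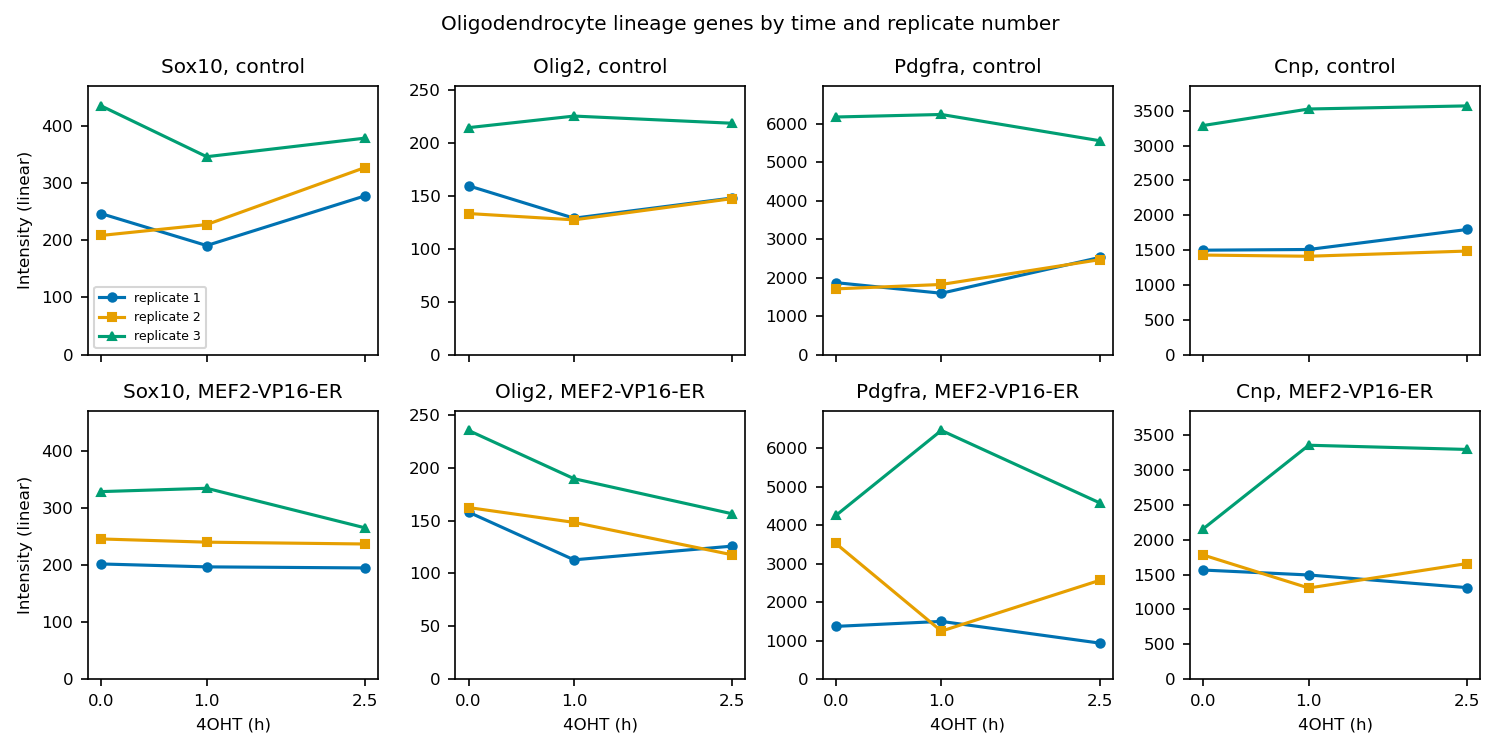
Linear intensity (y axis) of 4 lineage genes against hours of 4OHT (x axis) in control (top row) and MEF2-VP16-ER cultures (bottom row), 1 line per replicate number. Replicate 3 is the highest line in every panel, and the fall of Olig2 with MEF2-VP16-ER (-0.42 log2 units) is smaller than its gap between replicates 3 and 1 (0.52).

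Among the other lists few genes were called between groups. Dcn, a proteoglycan gene of fibroblasts, was lower with MEF2-VP16-ER at 1 h (-0.57 ± 0.09, adjusted p = 0.0098), at 2.5 h (-0.58 ± 0.09, adjusted p = 0.00106) and over the 3 times, and the values at 1 h and 2.5 h without the block were adjusted p = 1 and 0.684. Id3 was lower at 2.5 h by -1.36 ± 0.34 (adjusted p = 0.0357, without the block 0.761), and Fa2h, a lipid hydroxylase of myelin, over the 3 times by -0.22 ± 0.05 (adjusted p = 0.0317, without the block 0.262). Leaving out 1 array moved the adjusted p of Id3 to between 0.0107 and 0.192 and that of Fa2h to between 0.0134 and 0.0797. The 3 neuron genes read in every comparison were not called at 2.5 h: Map2 gave 0.11 ± 0.05, Syn1 -0.08 ± 0.06 and Rbfox3 0.00 ± 0.07.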

How the data were processed

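RNA of 18 samples of cultured cells was hybridised to Affymetrix arrays. The deposited table holds 1 intensity per probe set and array on a linear scale; the normalization the authors applied was not given in the sources used here. Titles in the labels gave each array's group and replicate number. Of 31099 probe sets, 57 controls were left out; 20826 of the rest carried 1 symbol, and all 40 markers were found in the RefSeq gene table.

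All arrays entered 1 limma fit of log2(intensity + 16) with 6 groups and 3 replicate numbers (10 residual degrees of freedom, median residual SD 0.087 log2 units). Replicate comparisons came from the same fit. Residuals of same-numbered arrays correlated above 0.1 in 44 of 45 pairs (0.068 to 0.791). Arrays of a number may share a culture, so replicate p-values compare these sets of arrays only. The number of arrays limits the precision.

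The markers and the 7 further lists were chosen with earlier results of these data known. Every marker is accounted for: values are given for 3 defining markers per class and for called genes (at most 12 per comparison), and of each further list up to 4 called genes with the largest difference between replicate numbers and up to 4 between groups, plus Rbfox3, Map2 and Syn1. Alternatives were no block, quantile normalization, median centring, pseudocounts 1 and 64, a filter at the median level, 1 probe set or the mean of all probe sets per gene, eBayes with trend and robust, and leaving out arrays or replicate numbers. The steps were tested on simulated data. Figures were drawn with matplotlib 3.10.9 in Python 3.11.15, and models were fitted with limma 3.58.1 in R 4.3.3.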

Additional observations from a re-analysis of the deposited data

How the results depend on the processing

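Without the replicate block 0 marker genes were called between the constructs at 2.5 h and 0 in MEF2-VP16-ER cultures at 2.5 h against 0 h, in place of 1 each. For the constructs at 2.5 h the count was 0 with a pseudocount of 64 and 2 with the mean over probe sets. For MEF2-VP16-ER at 2.5 h against 0 h it was 2 with a pseudocount of 64, 0 among probe sets above the median level, 2 with 1 probe set per gene and 0 with the mean over probe sets. Quantile normalization gave 1 over the 3 times (Ntsr2), and 1 probe set per gene gave 1 for the induction at 2.5 h (Slc1a2). Leaving out an array or a replicate number gave 0 to 2 for the constructs at 2.5 h and 0 to 1 for MEF2-VP16-ER at 2.5 h against 0 h, over the 3 times, for the induction at 2.5 h and for all 6 groups. Where leaving out an array added a call, the array was control 0 h replicate 2 (Sox10 over the 3 times, adjusted p = 0.00739), control 2.5 h replicate 1 (Ntsr2 over the 3 times, 0.0175) or MEF2-VP16-ER 1 h replicate 2 (Slc1a2 at 2.5 h, 0.0477), and Olig2 was added at 2.5 h without MEF2-VP16-ER 1 h replicate 1 (0.0442) or 2 (0.0404) or MEF2-VP16-ER 2.5 h replicate 1 (0.05 as rounded). The cause was not tested. Between replicate numbers the counts stayed at 9 to 11 (replicates 2 and 1), 20 to 23 (3 and 1) and 17 to 19 (3 and 2) when arrays were left out, and at 8, 14 and 13 among probe sets above the median level, where dim markers were not tested. C1qc lost its call between replicates 2 and 1 without control 0 h replicate 1 or MEF2-VP16-ER 0 h replicate 1, 1 h replicate 2 or 2.5 h replicate 2 (adjusted p from 0.05 to 0.06). Of 18 fits that left out 1 array, Id3 was called between groups in 11 (lost without control 2.5 h replicate 1, 2 or 3, or MEF2-VP16-ER 0 h replicate 1, 1 h replicate 3 or 2.5 h replicate 1 or 3), Fa2h in 7 and Dcn at 2.5 h in 18. Gja1 lost its calls with the mean over probe sets, and Slc1a3 lost its call between replicates 3 and 1. Among the called genes followed by name (at most 12 per comparison), no call changed sign under any alternative run. Gja1 in replicate 3 against replicate 1 was not among them. The probe set used for it was called lower there, while its dimmer probe sets gave 0.04 ± 0.05 and 0.23 ± 0.27, neither called. Class medians near 0 could change sign, those of the microglia genes for the inductions among them. Dim markers, among them all 6 endothelial genes, limit what these arrays can show.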
